A study of Mus musculus with 20 samples.

Results

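Prostates of 2 inbred mouse strains, BALB/c and DBA/2, were compared by the transcript levels of 4 RNA pools of each. The comparison took 8 of the 20 arrays of a study of 5 strains. The mice were males of 8 to 9 weeks, of the substrains BALB/cAnCrl (BALB/cAnNCrl in the methods of the study) and DBA/2NCrl, and no treatment, transgene or engineered allele is named for them. The RNA of 3 mice, from all 4 prostate lobes (dorsal, lateral, ventral and anterior), made up a pool, and each strain was represented by 12 mice. The spread between single mice is therefore not seen. After amplification each pool was co-hybridized to a cDNA array with a reference mixed from RNA of all samples, both strains included. Pools 1 and 4 of both strains were labelled with Cy3 and pools 2 and 3 with Cy5. A value is the log2 ratio of sample over reference, a difference is the BALB/c mean minus the DBA/2 mean, and errors of means are SDs over 4 pools. A value of 0 is the level of the reference and not an absent transcript, and levels cannot be compared between genes.

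The mouse prostate is a set of paired lobes whose luminal cells secrete proteins into the seminal fluid under the control of androgen. The seminal vesicles lie against the anterior lobe, and their secretory proteins clot after ejaculation, when the prostatic transglutaminase Tgm4 cross-links them into the copulatory plug. Inbred strains are homozygous and carry different alleles at many loci throughout the genome.

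The genes of the seminal vesicle proteins Svs2, Svs4 and Svs5, all higher in BALB/c, lie close together on mouse chromosome 2. Their promoters are shown because Svs2 and Svs5 had the largest differences of all named genes, and Svs4 belongs to the same group of secreted proteins. The 300 bases, 250 before and 50 from the annotated start, are those of the RefSeq table for GRCm38.p6, a C57BL/6J sequence, printed 5′ to 3′ on the strand of the gene. Neither BALB/c nor DBA/2 alleles are shown.
Svs2 (chr2:164238292-164238591, minus strand): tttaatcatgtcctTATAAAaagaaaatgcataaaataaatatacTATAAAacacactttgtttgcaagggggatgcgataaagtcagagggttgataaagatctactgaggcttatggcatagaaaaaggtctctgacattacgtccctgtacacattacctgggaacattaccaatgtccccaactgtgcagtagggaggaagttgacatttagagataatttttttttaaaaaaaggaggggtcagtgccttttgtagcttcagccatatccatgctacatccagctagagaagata
Svs4 (chr2:164278258-164278557, minus strand): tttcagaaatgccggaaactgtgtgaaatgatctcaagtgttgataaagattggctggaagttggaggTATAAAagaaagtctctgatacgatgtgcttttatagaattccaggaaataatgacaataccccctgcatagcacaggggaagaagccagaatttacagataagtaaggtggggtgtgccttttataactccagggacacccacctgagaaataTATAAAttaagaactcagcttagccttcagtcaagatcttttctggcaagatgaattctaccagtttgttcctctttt
Svs5 (chr2:164332515-164332814, plus strand): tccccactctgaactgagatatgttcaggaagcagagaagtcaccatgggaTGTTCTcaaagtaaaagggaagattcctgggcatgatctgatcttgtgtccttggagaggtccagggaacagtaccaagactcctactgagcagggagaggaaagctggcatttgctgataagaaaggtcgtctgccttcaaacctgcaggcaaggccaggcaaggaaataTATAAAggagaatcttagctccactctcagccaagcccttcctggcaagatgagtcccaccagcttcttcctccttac
Capitals mark TATAAA, the core of a TATA box, searched on the strand of the gene, and TGTTCT, a half-site of the androgen and glucocorticoid receptors, searched on both strands. The windows of Svs4 and Svs5 each held a TATAAA that began 28 bases before the start. That of Svs2 held 2, both more than 200 bases before the start, and only the window of Svs5 held TGTTCT. Of 32851 promoters of this length, 8.32% held TATAAA and 19.0% held TGTTCT, and such matches are letters in a window rather than binding sites.

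Of 11159 array elements tested, 382 (3.42%) differed between BALB/c and DBA/2 at an adjusted p under 0.05, with 216 higher (1.94%) and 166 lower (1.49%) in BALB/c. Among 5820 genes that could be named, 225 (3.87%) differed, with 129 higher (2.22%) and 96 lower (1.65%) in BALB/c. When the pool number, which also separates the dyes, was entered as a block, 668 elements passed, and 378 of the 382 were among them. The differences of the 382 elements ran from 0.35 to 7.62 in size, with a median of 0.66 or 1.58-fold, and 81 were at least 1. The median within-strain SD over all elements was 0.17 in BALB/c and 0.15 in DBA/2. The pools of the strains did not overlap for 380 of the 382 elements and for 10.7% of all elements. Each of the 382 had the same sign in the Cy3 pools and in the Cy5 pools, which pools without overlap always give. The dye itself separated 713 elements (6.39%), 9 of them among the 382. By the same test and threshold, the 10 pairs of strains gave from 87 elements (0.78%, 129X1/Sv and FVB/N) to 416 (3.73%, FVB/N and DBA/2), and this pair came second. In the paper's gene counts by SAM, C57BL/6 and FVB/N came first and this pair stood lower than second. The rank was not checked under other settings. The 8 arrays held 11223 to 11246 values each. Arrays of different strains and the same dye correlated at -0.08 to 0.09 over all elements, and those of opposite dye at -0.16 or below, down to -0.37. Within strains, the BALB/c pools correlated at -0.03 (pools 1 and 3, of opposite dye) to 0.44. The DBA/2 pools correlated at 0.35 to 0.735. BALB/c pools 1 and 3 were thus less alike over all elements than some arrays of different strains.

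**Figure D1:**
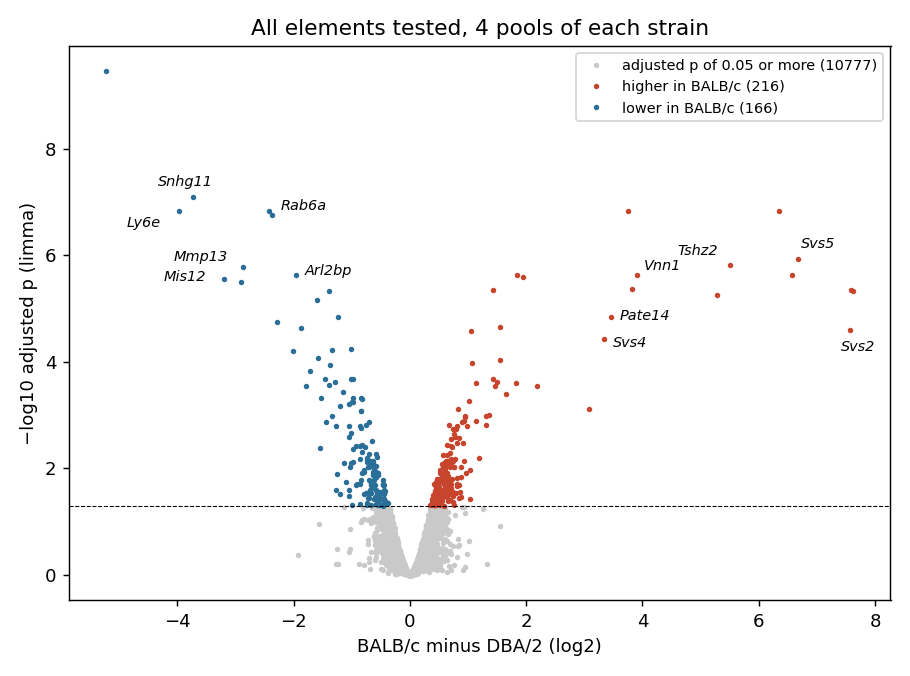
Difference between the strains (horizontal axis, BALB/c minus DBA/2, log2) against the adjusted p of limma (vertical axis, −log10) for each of 11159 elements, with 4 pools of each strain; the dashed line is an adjusted p of 0.05. The points farthest to the right are elements of Svs2 at up to 7.62, and the unlabelled point at the upper left is the other element of Ly6e at -5.22.

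Transcripts of the seminal vesicle secretory proteins showed the largest differences, and they were higher in BALB/c. Of 8 measured genes of this group, 5 were higher in BALB/c (62.5%, beside 3.87% of all named genes that passed) and none was lower. The median difference was 2.30, against 0.01 over all named genes. The members of this and the later groups were chosen with earlier results of these data known. Their shares beside that of all named genes are therefore no independent evidence. Svs2, the major protein of the copulatory plug, had values of 2.56, 1.64, 1.39 and 1.73 in BALB/c pools 1 to 4 and -3.46, -6.16, -6.88 and -6.46 in the DBA/2 pools. All BALB/c pools were above the reference and all DBA/2 pools far below it. The difference was 7.57 (SE 0.60, adjusted p = 2.5e-05), and the other 4 elements of the gene gave 6.35 to 7.62. DBA/2 pool 1 stood above the other DBA/2 pools, and leaving out one pool at a time gave 7.19 to 8.33. Whether the lowest DBA/2 values lie near the background of the arrays was not tested. In bulk tissue, fewer cells of a type and less RNA per cell cannot be told apart.

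Svs5 had values of 2.11, 1.71, 1.23 and 1.94 in the BALB/c pools and -3.99, -4.56, -5.16 and -5.99 in the DBA/2 pools, a difference of 6.67 (SE 0.35, adjusted p = 1.18e-06). The gene encodes another seminal vesicle protein, and again all BALB/c pools were above the reference and all DBA/2 pools far below it. Svs4, which encodes a small basic protein of the same secretion, had values of 1.34, 1.24, 0.79 and 1.58 in the BALB/c pools and -2.55, -2.08, -2.58 and -1.20 in the DBA/2 pools, a difference of 3.34 (SE 0.28, adjusted p = 3.69e-05). Pate4, a small cysteine-rich protein secreted by the seminal vesicle, had values of 2.30, 1.48, 1.02 and 1.41 in the BALB/c pools and -2.14, -2.51, -2.56 and -1.85 in the DBA/2 pools, a difference of 3.82 (SE 0.25, adjusted p = 4.39e-06). The pools of the strains did not overlap for any of these genes. Svs3b differed by 0.87 (SE 0.20, adjusted p = 0.0348), with BALB/c pools between -0.75 and 0.26 and DBA/2 pools between -1.46 and -0.93, and lost the threshold under 11 of 21 other settings. Svs1, which encodes a copper amine oxidase of the seminal vesicle, and Sva, the seminal vesicle antigen, did not pass, at -0.10 (adjusted p = 0.806) and 0.05 (adjusted p = 0.941). Svs6 was at 1.26 without passing (adjusted p = 0.0575).

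These 8 genes are also the markers of seminal vesicle tissue, which lies beside the anterior lobe. Their mean log2 ratio lay between 0.32 and 1.04 over the BALB/c pools and between -2.41 and -1.96 over the DBA/2 pools. The part of seminal vesicle tissue in these differences was not tested. In the other strains the same transcripts varied widely among pools. Svs2 was at 0.12, -6.84, -0.36 and -1.26 in FVB/N pools 1 to 4, at -5.97, -1.06, -7.31 and -7.21 in 129X1/Sv and at -7.63, -1.58, -4.79 and -5.11 in C57BL/6. Svs5 and Pate4 were also lowest in the FVB/N pool that was lowest for Svs2 and highest in the 129X1/Sv pool that was highest for it. The BALB/c pools had the smallest range of the 5 strains for Svs2, Svs5 and Svs4, and lay above every pool of the other 4 strains for Svs2, Svs5 and Pate4.

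**Figure D2:**
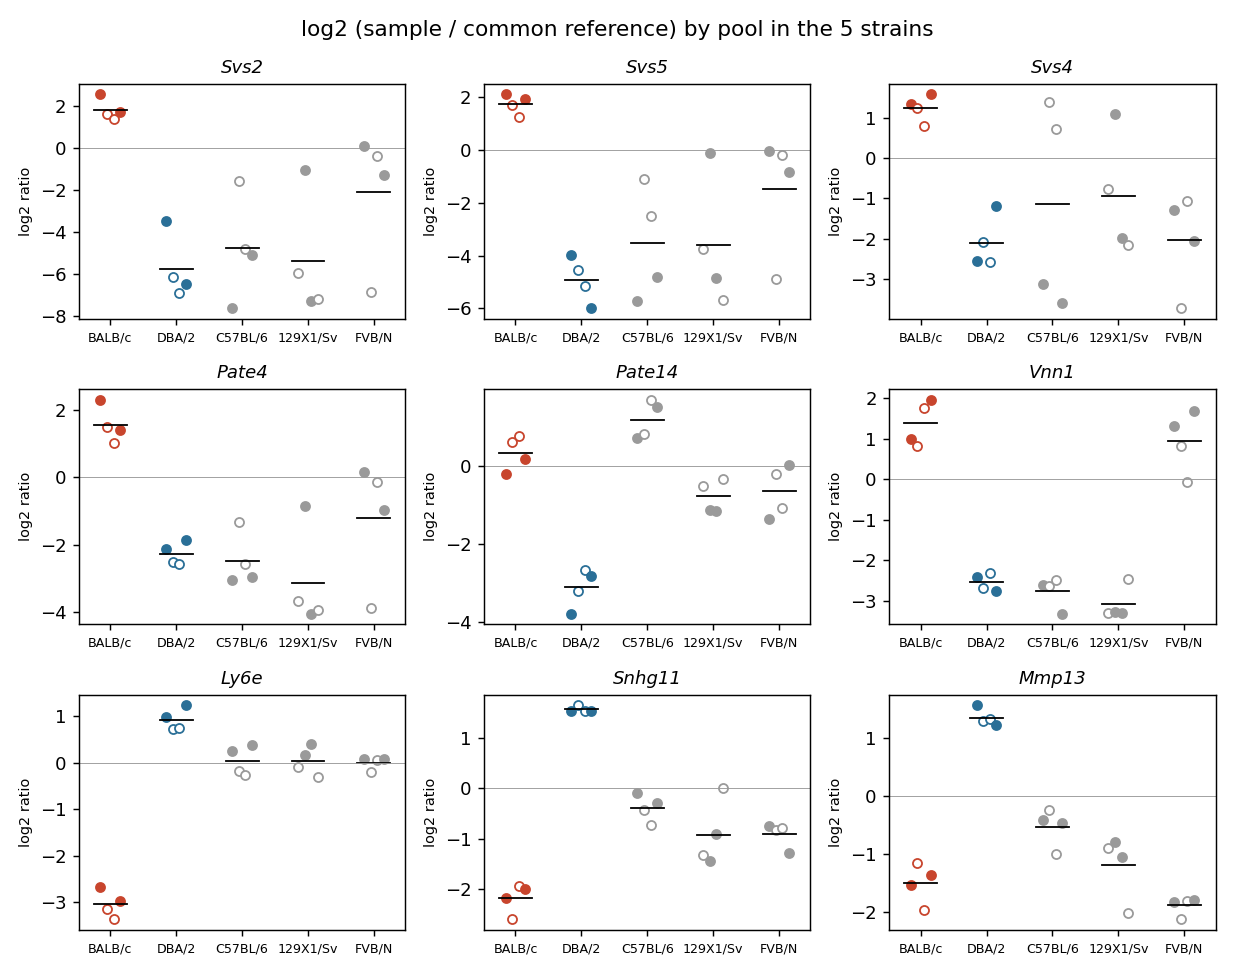
log2 ratio of sample over reference (vertical axis) by strain (horizontal axis) for 9 genes; each point is a pool, filled for Cy3 and open for Cy5, and the line is the mean of 4 pools. For Svs2, Svs5 and Pate4 the BALB/c pools lie above all others, for Ly6e the BALB/c pools lie alone below -2.6, and for Snhg11 and Mmp13 the DBA/2 pools lie alone above 1.2.

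Secreted proteins of the prostate itself did not share a direction. Of 19 measured genes, 3 were higher and 4 lower in BALB/c (36.8% passed, beside 3.87% of all named genes), and their median difference was 0.09. Pate14, of the same family of small cysteine-rich secreted proteins as Pate4, had values of -0.21, 0.63, 0.77 and 0.19 in the BALB/c pools and -3.79, -3.20, -2.66 and -2.81 in the DBA/2 pools, a difference of 3.46 (SE 0.26, adjusted p = 1.47e-05). In this case DBA/2 stood apart, with means of 1.18 in C57BL/6, -0.78 in 129X1/Sv and -0.65 in FVB/N. Apod, a lipocalin that carries lipids, was higher by 0.60 (SE 0.13, adjusted p = 0.0261) and Agr2, a protein disulfide isomerase of mucus-secreting cells, by 0.51 (SE 0.12, adjusted p = 0.0444). Both were close to the threshold and lost it under 10 and 12 of the 21 other settings.

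Rnase1, a secreted ribonuclease, had values of -1.34, -1.10, -1.13 and -1.11 in the BALB/c pools and 0.17, 0.50, 0.57 and 0.45 in the DBA/2 pools, a difference of -1.59 (SE 0.11, adjusted p = 7.06e-06). Wfdc2, a whey acidic protein of epithelial secretions, was lower, with a difference of -1.27 (SE 0.17, adjusted p = 0.00163), with BALB/c pools between -1.17 and -0.38 and DBA/2 pools between 0.30 and 0.80. Mgp, which inhibits calcification of matrix, was lower, with a difference of -0.97 (SE 0.16, adjusted p = 0.00752). Smgc, a secretory product of the submandibular gland in early life, was lower, with a difference of -0.54 (SE 0.13, adjusted p = 0.0444), and lost the threshold under 12 of 21 other settings. For Rnase1, Wfdc2 and Mgp every BALB/c pool was below the reference and every DBA/2 pool above it. The androgen-dependent secretory proteins probasin (Pbsn), spermine binding protein (Sbp) and Tgm4 did not pass the test, at 0.60 (adjusted p = 0.328), -0.33 (adjusted p = 0.446) and 0.32 (adjusted p = 0.366). Another element of Tgm4, numbered next to one of Svs2, was higher in BALB/c by 0.55 (adjusted p = 0.0286). Of 16 androgen-regulated genes, 2 passed (12.5%, beside 3.87% of all named genes), 1 each way, Apod and Fabp5.

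Beyond secretion, a small number of single genes separated the strains by more than 4-fold. Vnn1, a pantetheinase that releases cysteamine, had values of 0.98, 0.83, 1.75 and 1.95 in the BALB/c pools and -2.40, -2.68, -2.31 and -2.74 in the DBA/2 pools, a difference of 3.90 (SE 0.23, adjusted p = 2.4e-06). FVB/N resembled BALB/c, at -0.06 to 1.68, whereas C57BL/6 at -3.31 to -2.47 and 129X1/Sv at -3.29 to -2.44 resembled DBA/2. Fam199x, of unknown function, was at the level of the reference in BALB/c, with 0.20, -0.02, 0.24 and 0.13, and at -2.77, -1.86, -1.38 and -2.21 in DBA/2, a difference of 2.19 (SE 0.23, adjusted p = 0.000289). The means of the other 3 strains, between 0.18 and 0.29, lay with BALB/c.

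Ly6e, a GPI-anchored surface protein of the Ly6 family, was the gene with the largest difference in the opposite direction. Its values were -2.69, -3.15, -3.37 and -2.98 in the BALB/c pools and 0.99, 0.72, 0.74 and 1.23 in the DBA/2 pools, a difference of -3.97 (SE 0.16, adjusted p = 1.51e-07), or 15.6-fold lower in BALB/c. A second element of Ly6e gave -5.22 (SE 0.11, adjusted p = 3.53e-10). The other 3 strains lay between, with means of 0.05, 0.04 and 0.00175 in C57BL/6, 129X1/Sv and FVB/N, so that BALB/c alone was far below the reference. Of the 7 measured Ly6 and Pate genes, 2 were higher and 2 lower in BALB/c (57.1% passed, beside 3.87% of all named genes). The 2 higher ones, Pate4 and Pate14, are also counted in the groups of secreted proteins above. The second lower member was Psca (prostate stem cell antigen). Its values were -1.22, -0.87, -1.69 and -0.87 in the BALB/c pools and -0.30, 0.12, -0.35 and -0.41 in the DBA/2 pools. The difference was -0.93 (SE 0.19, adjusted p = 0.0204), and it lost the threshold under 7 of 21 other settings. Of the 3 other Psca elements 1 passed, at -1.04 (adjusted p = 0.00254). The rest were at -0.51 (adjusted p = 0.274) and -0.49 (adjusted p = 0.351) without passing.

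Snhg11, a noncoding RNA that hosts a small nucleolar RNA, had values of -2.17, -2.59, -1.94 and -2.001 in the BALB/c pools and 1.52, 1.64, 1.53 and 1.53 in the DBA/2 pools, a difference of -3.73 (SE 0.14, adjusted p = 7.95e-08). The other 3 strains had means of -0.39 to -0.92, below the reference like BALB/c. Mis12, a subunit of the kinetochore complex that links chromosomes to the spindle, had values of -2.45, -1.76, -2.19 and -1.68 in the BALB/c pools and 0.72, 1.33, 1.44 and 1.17 in the DBA/2 pools, a difference of -3.19 (SE 0.19, adjusted p = 2.75e-06). C57BL/6 was high like DBA/2, with a mean of 0.81, and 129X1/Sv and FVB/N were low like BALB/c, at -2.12 and -1.99. Its neighbour in the annotation, 6330403K07Rik, was lower in BALB/c, with a difference of -1.78 (SE 0.19, adjusted p = 0.000289), where DBA/2 alone was high.

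Rab6a, a GTPase of Golgi transport, had values of -1.52, -1.17, -1.26 and -1.48 in the BALB/c pools and 1.002, 1.06, 1.04 and 0.92 in the DBA/2 pools, a difference of -2.36 (SE 0.10, adjusted p = 1.79e-07), and its other element gave -2.42. Chm, the Rab escort protein that brings Rab GTPases to the enzyme that prenylates them, was lower, with a difference of -1.38 (SE 0.09, adjusted p = 4.69e-06). Arl2bp, which binds the GTPase Arl2, was at -1.82, -1.92, -1.52 and -1.87 in the BALB/c pools and at 0.26, 0.02, 0.10 and 0.30 in the DBA/2 pools, a difference of -1.95 (SE 0.11, adjusted p = 2.35e-06). For these 3 genes all BALB/c pools were below the reference and all DBA/2 pools above it, and for Arl2bp BALB/c alone was low among the 5 strains.

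**Figure D3:**
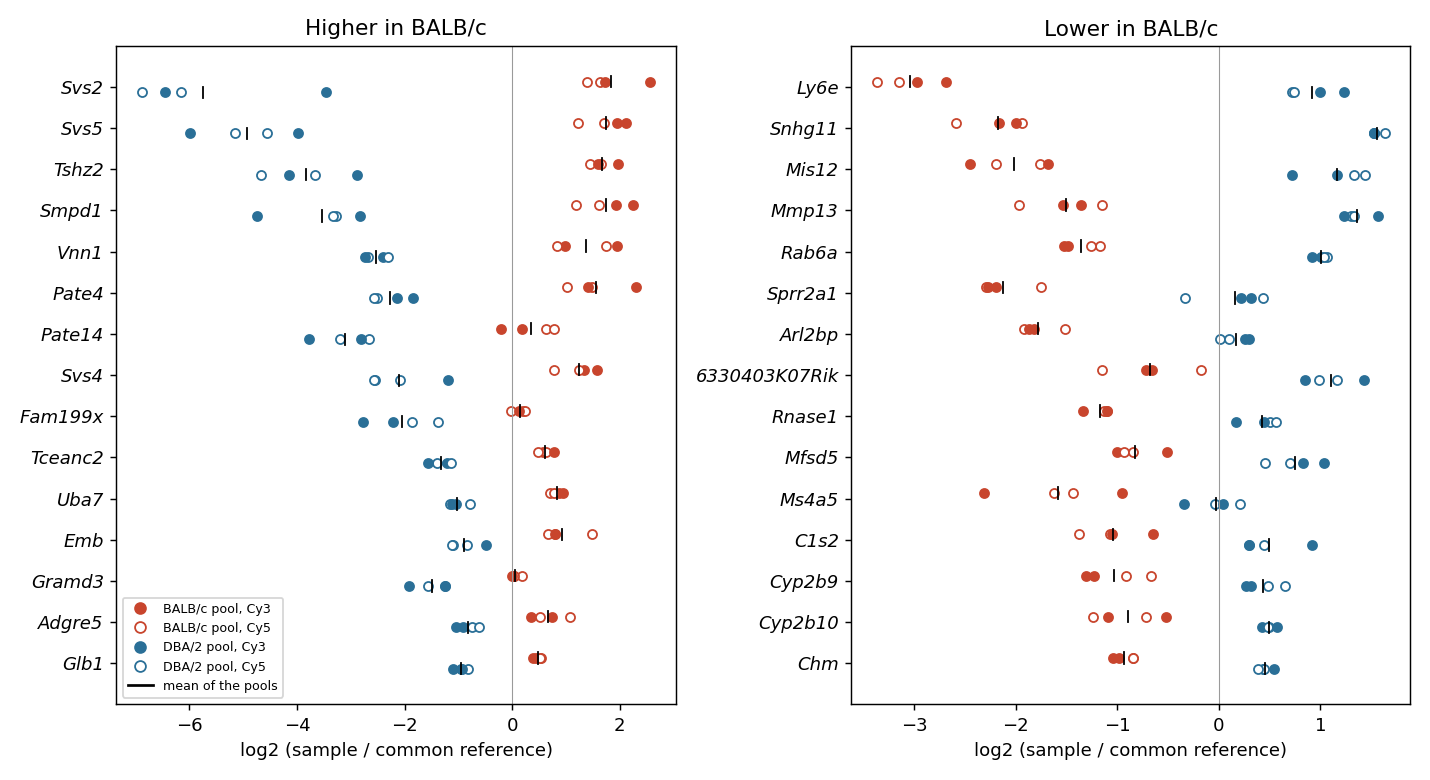
log2 ratio of sample over reference (horizontal axis) in each pool for the 15 named genes with the largest differences higher in BALB/c (left) and the 15 lower in BALB/c (right) (vertical axis, genes); filled points are Cy3 pools, open points Cy5 pools and black ticks the means. The genes were chosen among those whose pools did not overlap between the strains, and the range among DBA/2 pools is widest for Svs2.

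Of 39 measured proteases and their inhibitors, 2 were higher and 2 lower in BALB/c (10.3%, beside 3.87% of all named genes), with a median difference of 0.04. Mmp13, a collagenase, had values of -1.53, -1.16, -1.97 and -1.36 in the BALB/c pools and 1.57, 1.31, 1.33 and 1.23 in the DBA/2 pools, a difference of -2.87 (SE 0.16, adjusted p = 1.64e-06), and its other element gave -2.89. DBA/2 alone was above the reference, with means of -0.53 to -1.89 in the other 3 strains. Mmp7 (matrilysin), an epithelial metalloproteinase, went the other way, with -0.70, -0.22, 0.05 and -0.22 in the BALB/c pools and -1.94, -1.43, -1.43 and -1.55 in the DBA/2 pools, a difference of 1.31 (SE 0.17, adjusted p = 0.00105). Spink5, an inhibitor of kallikreins in stratified epithelia, was lower, with a difference of -1.37 (SE 0.13, adjusted p = 0.000115). Plau, the urokinase-type plasminogen activator, was higher by 1.03 (SE 0.24, adjusted p = 0.038), and its other element gave 1.31. Of 35 genes of the extracellular matrix, Eln, the gene of elastin, and Mgp were lower in BALB/c and none was higher (5.71% passed, beside the same 3.87%). Eln was lower, with a difference of -0.68 (SE 0.11, adjusted p = 0.00741).

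In barrier and surface epithelium, Sprr2a1, a small proline-rich protein of the cornified envelope, had values of -2.19, -1.75, -2.29 and -2.28 in the BALB/c pools and 0.22, 0.44, -0.33 and 0.32 in the DBA/2 pools, a difference of -2.29 (SE 0.18, adjusted p = 1.79e-05). Near-identical Sprr2 genes could share this cDNA element, so the member cannot be settled. Anxa1, a calcium-dependent phospholipid binding protein, was lower, with a difference of -0.67 (SE 0.13, adjusted p = 0.0197), and Cldn8, a tight junction claudin, was higher by 0.50 (SE 0.09, adjusted p = 0.0159). They were the 3 that passed of 17 measured genes of keratins, junctions and barrier (17.6%, beside 3.87% of all named genes).

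Detoxification genes differed as single members. Cyp2b9 and Cyp2b10, related cytochromes P450 that hydroxylate steroids and drugs, were lower in BALB/c, with differences of -1.46 (SE 0.15, adjusted p = 0.000213) and -1.39 (SE 0.15, adjusted p = 0.000271). Cyp2b10 was at -1.09, -0.72, -1.24 and -0.53 in the BALB/c pools and 0.42, 0.50, 0.49 and 0.57 in the DBA/2 pools. The sequences of the P450s are close enough for a cDNA element to bind both, and both were lowest in 129X1/Sv, with means of -2.44 and -2.05. With Vnn1, they were the 3 of 16 xenobiotic genes that passed (18.8%, beside 3.87% of all named genes). Of 24 genes of glutathione and oxidant defence, 2 passed each way (16.7% in all). The glutathione transferase Gstm2 was higher by 0.85 (SE 0.12, adjusted p = 0.00266), and Gsto1, an omega-class transferase, by 0.56 (SE 0.11, adjusted p = 0.0167). The cystine transporter Slc7a11, which supplies glutathione synthesis, was lower, with a difference of -1.03 (SE 0.18, adjusted p = 0.00942), and the microsomal transferase Mgst1 had -0.58 (SE 0.10, adjusted p = 0.0119). The 4 Slc7a11 values in BALB/c, 0.01, -0.26, -0.20 and 0.28, lay below all of the DBA/2 values, 0.93, 0.95, 0.60 and 1.47.

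The prostate is rich in polyamines, and both enzymes of that pathway that passed were higher in BALB/c, of 6 measured genes (33.3%, beside 3.87% of all named genes). Spermine synthase (Sms) had values of 0.32, 0.21, 0.48 and 0.62 in the BALB/c pools and -0.26, -0.50, -0.36 and 0.03 in the DBA/2 pools, a difference of 0.68 (SE 0.13, adjusted p = 0.0181). Arginase 2 (Arg2) was higher by 0.52 (SE 0.12, adjusted p = 0.0439) and lost the threshold under 9 of 21 other settings. Odc1, the rate-limiting enzyme of the pathway, was at 0.27 without passing (adjusted p = 0.289). Of 28 lipid genes, 2 were higher (Apod and an element of Smpd1 numbered next to that of Svs5) and 1 lower (10.7% passed). Fabp5, a fatty acid binding protein, had values of -0.48, -0.56, -0.73 and -0.42 in the BALB/c pools and 1.61, 0.35, 0.08 and 0.85 in the DBA/2 pools, a difference of -1.27 (SE 0.26, adjusted p = 0.0251). DBA/2 pool 1 was the highest of the 8 and the strains did not overlap, and leaving out one pool at a time gave -1.49 to -0.98. The call was lost under 6 of 21 other settings. Of 19 measured genes that the study discusses, 3 were higher (Svs2, Apod and Mmp7) and 3 lower (Fabp5, Psca and Mgst1) in BALB/c, and since these were chosen on the same samples their count is no independent evidence.

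**Figure D4:**
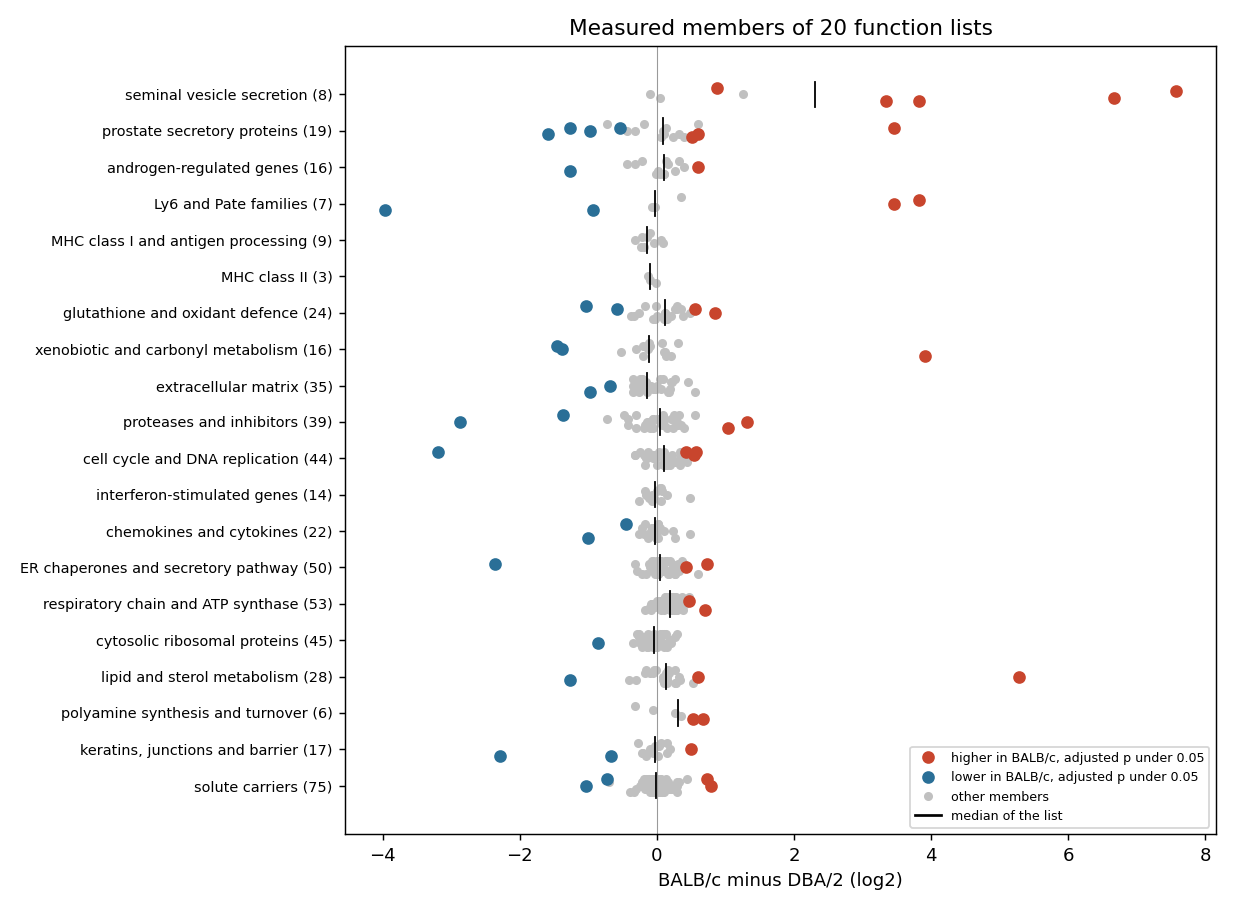
Differences between the strains (horizontal axis, BALB/c minus DBA/2, log2) for every measured member of 20 function lists (vertical axis, with the number measured); coloured points passed an adjusted p of 0.05 and the black line is the list's median. In the seminal vesicle secretion list 7 of 8 members lie above 0 and 5 passed, up to 7.57, and no other list has a median beyond 0.31 in either direction.

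No measured gene of the lists for the major histocompatibility complex and antigen processing passed. Both strains carry the H2-d haplotype, but the paper found no match between expression of this family and H2 haplotype. The part of the haplotype was not tested. None of 9 class I and antigen processing genes and none of 3 class II genes passed by limma, 0 of either group had an unadjusted p under 0.05, and 0 passed under any other setting. Of all 5820 named genes, 969 had an unadjusted p under 0.05. The 9 were those measured of 28 listed, and H2-Q1 was the only class I heavy chain among them. H2-Ea, the class II alpha chain of the E molecule, had means of 1.17 ± 0.17 (BALB/c) and 1.19 ± 0.40 (DBA/2), while the means were -3.56, -3.27 and -2.57 in C57BL/6, 129X1/Sv and FVB/N. Beta-2 microglobulin (B2m) had means of -0.11 ± 0.40 (BALB/c) and 0.13 ± 0.34 (DBA/2). Of 14 interferon-stimulated genes none passed by limma, 1 had an unadjusted p under 0.05, and 1 passed with a dye term or with the pool number as a block. Of 22 chemokines and cytokines, 2 were lower in BALB/c (9.09%, beside 3.87% of all named genes that passed). Ccl11 (eotaxin), which attracts eosinophils, had values of -0.21, -0.38, -0.72 and -0.78 in the BALB/c pools and 0.25, 0.52, 0.62 and 0.54 in the DBA/2 pools, a difference of -1.004 (SE 0.14, adjusted p = 0.00218), with its other element at -0.82 (adjusted p = 0.093). Il18, an inflammasome-released cytokine, was lower, with a difference of -0.45 (SE 0.10, adjusted p = 0.0431) and lost the threshold under 15 of 21 other settings.

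In the larger housekeeping groups 2.22% to 9.09% of the measured members passed. Of 53 genes of the respiratory chain and ATP synthase, 2 were higher in BALB/c (3.77%, beside 3.87% of all named genes), Sdhc by 0.70 (SE 0.14, adjusted p = 0.023) and Cox7a2l by 0.47 (SE 0.11, adjusted p = 0.038). Of the 53, 44 had a difference above 0, with a median of 0.19, whereas 3002 of all 5820 named genes were above 0. Of 45 cytosolic ribosomal protein genes, Rps3 alone passed (2.22%), lower, with a difference of -0.86 (SE 0.13, adjusted p = 0.00383), and its other element was at -0.11 without passing (adjusted p = 0.642). Of 50 genes of the ER and secretory pathway, Mcfd2, which helps carry clotting factors out of the ER, was higher by 0.73 (SE 0.10, adjusted p = 0.00185) and Srp14, of the signal recognition particle, by 0.43 (SE 0.10, adjusted p = 0.0448), and Rab6a was lower (6.00% passed). Of 44 cell cycle genes, 3 were higher, cyclin A2 (Ccna2) by 0.43, cyclin G1 (Ccng1) by 0.57 and the replicative helicase subunit Mcm2 by 0.54, and Mis12 was lower (9.09% passed). Of 75 solute carriers, Slc39a8, an importer of zinc and manganese, and Slc48a1, a haem transporter, were higher by 0.79 and 0.72. Slc30a10, a manganese exporter, was lower, with a difference of -0.73 (SE 0.12, adjusted p = 0.00691), and Slc7a11 was the other that was lower (5.33% passed). Cox7a2l and Mcm2 each lost the threshold under 10 of 21 other settings, Srp14 under 12, Ccng1 under 9, and Sdhc and Ccna2 under 6 each.

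Markers of the cell types that the dissected tissue could hold passed in a few cases. Over all 5820 named genes 3.87% passed by limma, and 969 had an unadjusted p under 0.05. Of 10 luminal epithelial markers, Agr2 passed and 5 had an unadjusted p under 0.05. The differences of 9 of the 10 were above 0, with a median of 0.15. The mean of the 10 ran from -0.03 to 0.19 over BALB/c pools and from -0.19 to -0.02 over DBA/2 pools. None of 5 basal, 3 neuroendocrine, 14 fibroblast, 6 endothelial, 4 lymphocyte, 6 adipose or 4 neuronal and Schwann cell markers passed by limma, and in that order 1, 0, 3, 0, 1, 1 and 0 had an unadjusted p under 0.05. The single measured markers of the epididymis and of erythrocytes did not pass either, with 0 under 0.05 unadjusted. None of 12 smooth muscle markers passed (3 had an unadjusted p under 0.05), but 11 were below 0, their median was -0.20, and the mean of the list ran from -0.12 to 0.04 in BALB/c and from 0.01 to 0.24 in DBA/2. Both measured urothelial markers were lower in BALB/c, Psca, which prostate epithelium also expresses, and Upk1b, a uroplakin of the bladder and urethra, the latter with a difference of -0.48 (SE 0.10, adjusted p = 0.0294) that lost the threshold under 10 of 21 other settings. Of 10 skeletal muscle markers, Acta1, the skeletal actin, was lower, with a difference of -1.20 (SE 0.14, adjusted p = 0.000673), with BALB/c pools between -0.91 and -0.30 and DBA/2 pools between 0.43 and 0.80. The median of the 10 was -0.08, 4 were above 0, and the mean of the list overlapped, from -0.33 to 0.27 over BALB/c pools and from -0.05 to 0.40 over DBA/2 pools. Of 7 macrophage and leukocyte markers, Lyz2, the lysozyme of macrophages, was higher by 0.73 (SE 0.14, adjusted p = 0.0157). The part of these cell types in the other differences was not tested. Values are ratios to a reference of the same tissue, so the presence of a cell type cannot be read from them.

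Further large differences were found in genes of other functions. The genes higher in BALB/c were Tceanc2, of a transcription elongation factor family (1.94), embigin (Emb), a partner of monocarboxylate transporters (1.82), Adgre5 (CD97), an adhesion receptor of leukocytes (1.50), and Glb1, the lysosomal beta-galactosidase (1.42). Glb1 was at 0.44, 0.53, 0.53 and 0.39 in the BALB/c pools and -1.09, -0.96, -0.83 and -0.93 in the DBA/2 pools. Lower in BALB/c were C1s2, a serine protease of the complement C1 family (-1.53), Mfsd5, a molybdate transporter (-1.58), and Ms4a5, of the CD20-like membrane family (-1.55). Each of these 7 genes had an adjusted p of 0.0042 or below and no overlap between pools.

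For some genes the elements disagreed, and their large differences belong to 1 element only. The Tshz2 element with the difference of 5.51 (SE 0.30, adjusted p = 1.55e-06) had values of 1.98, 1.65, 1.44 and 1.60 in the BALB/c pools and -2.88, -3.66, -4.67 and -4.16 in the DBA/2 pools. The 2 other elements of Tshz2, a zinc finger transcription factor, were at -0.03 and 0.05 without passing. Uba7, the activating enzyme of ISG15, was higher by 1.85 (SE 0.11, adjusted p = 2.35e-06) and Gramd3, a GRAM domain protein, by 1.55 (SE 0.14, adjusted p = 9.31e-05), while their other elements were at -0.19 and 0.07 without passing. The element of Smpd1, the acid sphingomyelinase, had values of 2.25, 1.61, 1.19 and 1.93 in the BALB/c pools and -2.83, -3.27, -3.32 and -4.74 in the DBA/2 pools, a difference of 5.29 (SE 0.36, adjusted p = 5.5e-06), and its element number directly precedes the one of Svs5. Its means in C57BL/6, 129X1/Sv and FVB/N were -3.30, -2.95 and -1.33, beside -3.52, -3.60 and -1.49 for Svs5. The Uba7 element was at -1.38, 1.25, 0.41 and -1.91 in C57BL/6 pools 1 to 4, beside -3.12, 1.38, 0.73 and -3.60 for Svs4. The Tshz2 element was at -4.60, -0.88, -5.01 and -4.86 in 129X1/Sv pools 1 to 4, beside -5.97, -1.06, -7.31 and -7.21 for Svs2. Which transcripts these elements bind, and the part of neighbouring spots in their values, was not tested. Of 48 elements numbered next to the 25 with a difference of at least 2, 5 passed (10.4%, beside 3.42% of all elements), 4 of them in the direction of the large neighbour. The 48 leave out neighbours that are themselves among the 25, as the elements of Smpd1 and Svs5 are. Of 72 genes that passed and had several elements, 58 had all elements in the same direction, and in 24 all of them passed. Some of these elements may be repeated spots of 1 clone.

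Some neighbouring genes in the annotation both differed. Of 1706 pairs of measured protein-coding genes adjacent in the annotation, both passed in 11 (0.645%), and they formed 10 groups, 5 of which had 1 direction. Of all named genes taken singly 3.87% passed. The share of pairs that would both pass without regard to position was not computed. The largest group was Svs2, Svs3b and Svs4, all higher in BALB/c. Lyz2 and 9530003J23Rik, which lie side by side, differed in opposite directions, the latter lower, with a difference of -0.85 (SE 0.10, adjusted p = 0.000471). The phospholipid flippase Atp8b1 was lower, with a difference of -0.50 and its neighbour Nedd4l, a ubiquitin ligase of ion channels, higher by 0.58. The F-box genes Fbxo2 and Fbxo44 were both higher, by 0.40 and 0.41, with the DBA/2 mean the lowest of the 5 strains. For both genes, single pools of C57BL/6 and 129X1/Sv lay within the range of the DBA/2 pools. Atp8b1 lost the threshold under 10 of 21 other settings, Nedd4l under 14, and Fbxo2 and Fbxo44 under 12 each.

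The means of the other 3 strains were placed on the BALB/c or the DBA/2 side of the midpoint between the pair. Of the 225 named genes that passed, 48 had the means of all 3 other strains on the BALB/c side of the midpoint between BALB/c and DBA/2, so that DBA/2 stood alone, and 48 had none there, so that BALB/c stood alone. The remaining 129 were split, with 69 having 1 and 60 having 2 of the other strains on the BALB/c side. Among genes higher in BALB/c, BALB/c was alone on its side in 30 of 129 and DBA/2 in 26. Among genes lower in BALB/c, BALB/c was alone on its side in 18 of 96, as for Ly6e and Arl2bp, and DBA/2 in 22, as for Snhg11 and Mmp13.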

How the data were processed

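Median background was subtracted from the median signal of each spot of a custom mouse prostate cDNA array, and print-tip loess was applied within arrays, by the authors, who deposited log2 ratios of sample over reference. Their removal of low-abundance spots, spot intensities and signal over background are not used here, so that precision rests on 4 arrays per strain and nearness to background is not known. An element was kept if no more than 3 of its 20 values were missing and each strain had 2 or more (11159 of 11552; 393 left out). A moderated test without covariates, from limma 3.58.1 (R 4.3.3), compared the strain means of the 8 arrays, with p-values adjusted by Benjamini and Hochberg over all elements tested. The test replaces the permutation-based SAM of the study, and was tested on simulated data.

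Symbols came from the annotation of the array: 8050 elements carried 1 symbol, 672 several and 2830 none, and no gene was named from the last 2 kinds; 7880 elements matched the RefSeq gene table and 0 symbols changed. A gene with several elements was represented by the one with the fewest missing values over the 20 arrays. Repeated spots of 1 clone appear to be among them, since Mmp13 elements 3036 and 3228 are both numbered between elements of Csrp3 and Chga. Where spots repeat a clone, their agreement is no independent evidence for the gene. Genes were named if they were the 15 largest each way among elements that passed without overlap of pools, members that passed in 20 function lists (at most 6 each), genes that the paper discusses, markers that passed in 15 cell type lists, or adjacent genes that both passed. Some members that did not pass, other elements and genes of complement, chaperones and amino acid synthesis were chosen after their values were seen. The members and lists were chosen with earlier results of these data known.

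Pools carry the numbers 1 to 4 in both strains. Deviations from the strain means correlated at 0.278, 0.331, 0.409 and 0.398 between pools of the same number, so that the number was also entered as a block. Pools of different number and the same dye correlated at 0.209 to 0.405, so that number and dye cannot be told apart here. The pools come from separate mice. Alternatives were other filters, scalings and tests, a dye term, pools of 1 dye, all 20 arrays, elements averaged by gene and each pool left out in turn. Python 3.11.15, pandas 2.3.3 and matplotlib 3.10.9 were used for tables and plots.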

Additional observations from a re-analysis of the deposited data

Results flagged for a closer look

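Of 168 groups of 4 pools, those of 84 named genes in 2 strains, 4 held a pool whose gap to the nearest other pool was above Dixon's 95% critical value for the share of the range. Chance flags about 1 in 20 groups. Snhg11 was at 1.64 in DBA/2 pool 2 and at 1.52 to 1.53 in the other DBA/2 pools. Rnase1 was at -1.34 in BALB/c pool 1 and at -1.13 to -1.10 in the others. Emb was at 1.48 in BALB/c pool 2 and at 0.67 to 0.79 in the others. Arg2 was at -0.03 in DBA/2 pool 4 (-0.0312) and at -0.40 to -0.35 in the others. The differences between the strains were -3.73 for Snhg11, -1.59 for Rnase1 and 1.82 for Emb. For Arg2 the pool moved toward BALB/c, and without DBA/2 pool 4 the difference was 0.61.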

How the results depend on the processing

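The number of elements past the threshold depended on how the dye and the spread were treated. Beside 382 (216 higher and 166 lower in BALB/c), a dye term gave 698 (400 and 298) and the pool number as a replicate block 668 (373 and 295). The 4 pools with the sample in Cy3 alone gave 109 (48 and 61), those in Cy5 alone 183 (97 and 86), all 20 arrays in 1 fit 210 (100 and 110) and an ordinary t-statistic without moderation 196 (108 and 88). A required difference of at least 1 left 81. Leaving out one pool at a time gave 195 to 333 elements (98 to 180 higher, 97 to 157 lower). The count fell to 195 without DBA/2 pool 2, 222 without BALB/c pool 4, 237 without BALB/c pool 2 and 242 without DBA/2 pool 3. Higher calls outnumbered lower ones with all 8 arrays, but not in the Cy3 pools, in the fit of 20 arrays, without BALB/c pool 4 (103 and 119) or without DBA/2 pool 3 (119 and 123). Other filters, median centring, scaling to 1 spread, quantile normalization, a robust estimate of the spread and averaging by gene gave 313 to 394. Leaving out 48 elements numbered next to the largest differences, added after the data were seen, gave 377. That was a count without a new fit or adjustment, which only removed the 5 of the 48 that had passed. The neighbouring elements of Smpd1 and Svs5, both large, stayed in. The cause of the shifts in the number was not tested.

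Each of the 382 elements kept its sign under every setting that tested it. For the 380 whose pools did not overlap, leaving out pools or taking 1 dye cannot reverse the sign. A dye term, a block or another estimate of the spread leaves the difference of a balanced design as it is. Signs kept under these settings are therefore no separate evidence. None of 71 named genes that passed changed direction, to which the same limit applies. Of the 71, 32 passed under all of 21 settings, among them Ly6e, Snhg11, Mmp13, Svs2, Svs5, Pate4, Pate14 and Vnn1. The other 39 lost the threshold under 1 to 15 of the settings, and 12 to 22 of them lost it when a single pool was left out. The block changed no call of the 84 named genes and lost 4 of the 382 elements, while it raised the members that passed among proteases and inhibitors from 4 to 9 and in the respiratory chain from 2 to 5. Of 13 named genes that did not pass, 4 changed sign. Clu was at -0.0127 after quantile normalization and, with each pool left out, at -0.00268 (without BALB/c pool 4), at -6.50e-05 (without DBA/2 pool 3) and at up to 0.310. Esr1 ran from -0.108 to 0.0780 with each pool left out, the latter without BALB/c pool 4, and was at 0.0366 without DBA/2 pool 3. H2-Ea was at 0.118 in the Cy5 pools and ran from -0.216 to 0.0838 with each pool left out, above 0 in 5 of the 8 cases. Rbp4 was at 0.114 after averaging by gene. Azgp1 passed without DBA/2 pool 1 alone.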

Other observations

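Stress-related genes outside the lists above were looked at after their values were seen, and their counts describe these pools only. Of 29 measured cytosolic and mitochondrial chaperones, 4 were higher in BALB/c and none was lower, and 22 differences were above 0, with a median of 0.15. Over all named genes 3.87% passed. Hsph1, a nucleotide exchange factor of Hsp70, was higher by 0.88 (SE 0.17, adjusted p = 0.0146), and Hspe1, the cochaperone of mitochondrial Hsp60, by 0.74 (SE 0.12, adjusted p = 0.00727). Stip1, which links Hsp70 to Hsp90, was higher by 0.58 (SE 0.11, adjusted p = 0.0144) and Hspa8, the constitutive Hsp70, by 0.38 (SE 0.09, adjusted p = 0.0379). Of 20 genes of amino acid synthesis and the related stress response, asparagine synthetase (Asns) was higher by 0.90 (SE 0.12, adjusted p = 0.00136) and the serine synthesis enzyme Psat1 by 0.63 (SE 0.13, adjusted p = 0.0197), while Slc7a11 was lower.

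Of 6 measured complement genes, C1ra and C1s2, proteases of the C1 complex family, were lower in BALB/c, with differences of -0.93 (SE 0.14, adjusted p = 0.00379) and -1.53 (SE 0.17, adjusted p = 0.000478). Cr1l, a membrane regulator of complement, was higher by 0.41 (SE 0.09, adjusted p = 0.0324). The median of the 6 was 0.02.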
